A study of Mus musculus with 6 samples.

Results

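The genes described here encode the subunits of the receptors for glutamate, GABA and glycine in lumbar dorsal root ganglia (DRGs) of mice. They were chosen by symbol, with earlier results of these data known. The rule took rows of the deposited gene table with the symbol of a GABA-A, GABA-B, AMPA, kainate, delta, NMDA, metabotropic glutamate or glycine receptor subunit. Of the 24623 genes tested, 47 are described, and some with such a symbol are not reported here. The set held 16 GABA-A, 2 GABA-B, 4 AMPA, 5 kainate, 1 delta, 7 NMDA, 7 metabotropic glutamate and 5 glycine receptor genes, and each of them had a value on every array. The animals were adult male wild-type C57BL/6 mice, 8 to 12 weeks old, with no nerve injury named for them. LBP, the polysaccharides of wolfberry, was given orally at 100 mg/kg for 13 days, and control mice received PBS, its vehicle. L4/5 DRGs were hybridized to 3 arrays per group. The methods name 3 mice in each of several separate groups, RNA taken per group and biologically independent hybridizations, so an array may hold RNA of several mice, and p-values measure the spread between these arrays. The deposited treatment text names LBP for all 6 samples, and the titles and treatment labels, which separate LBP from PBS, were followed. All values are log2 intensities, so that a log2 fold change is the LBP mean minus the PBS mean.

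Glutamate, GABA and glycine act on receptors built from several subunits. AMPA, kainate, delta and NMDA subunits form the ionotropic glutamate receptor family. GABA-A and glycine receptors are chloride channels, while metabotropic glutamate receptors and the GABA-B receptor act through G proteins. Primary sensory neurons release glutamate from their central terminals in the spinal cord, and their own GABA-A receptors are known for depolarizing them, because the cotransporter Slc12a2 keeps chloride high inside these cells.

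The ganglia carried the markers of sensory neurons on every array. The 8 pan-neuronal markers examined, among them Prph, Avil, Isl1 and Pou4f1, had PBS means between 9.15 and 13.1, and the 8 genes differed in their median by 0.02 after LBP. Of 8 nociceptor markers 6 were negative (median -0.06). Of 8 markers of large-diameter neurons 6 were positive (median 0.06), where 49.7% of all genes were. Groups did not overlap in 25% of each list, against 9.63% of all genes. Trpa1 (-0.37), Scn10a (-0.14) and Cacna1h (-0.16) were lower after LBP, and Scn1a (0.20) higher. The part of these neuron types in the receptor values was not tested. Array medians lay between 6.45 and 6.46. On LBP replicate 2, the median of 14 markers of the central nervous system stood at 0.66 above the PBS mean, and the median of 7 Schwann cell and myelin genes at 0.56, while skeletal muscle markers were low on LBP replicate 2 (-1.14) and PBS replicate 2 (-1.03). In RNA from whole ganglia, fewer cells of a type and less RNA per cell cannot be told apart.

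Of the 47 receptor genes, 0 passed limma's test at an adjusted p under 0.05 (Benjamini-Hochberg over all genes, lowest adjusted p 0.999), where 2 of all genes did, or 0.00812%. At an unadjusted p under 0.05 there were 4 receptor genes, or 8.51%, against 4.72% of all genes. Of these 4, Gria4 and Gabra5 had positive log2 fold changes, against 2.07% of all genes at this p with a positive one, and Gabrr3 and Gabrg3 had negative ones, against 2.65%. There was no overlap between the groups in 7 receptor genes, or 14.9%, against 9.63% of all genes. The 4 with all LBP values higher were Gria2, Gria4, Grin2d and Grin3a (4.35% of all genes), and the 3 with all LBP values lower were Gabrr3, Gabra6 and Gabbr1 (5.28% of all genes). Log2 fold changes of the 47 ran from -0.36 to 0.62 with a median of 0.04, the median over all genes being 0.00, and 28 of 47 were positive, against 49.7% of all genes. The precision set a limit on these statements: the 95% interval of a log2 fold change reached 0.25 to each side for the median receptor gene, 0.20 for the narrowest and 0.94 for the widest. The exact permutation test of a single gene on 3 against 3 arrays can give no two-sided p under 0.1.

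**Figure D1:**
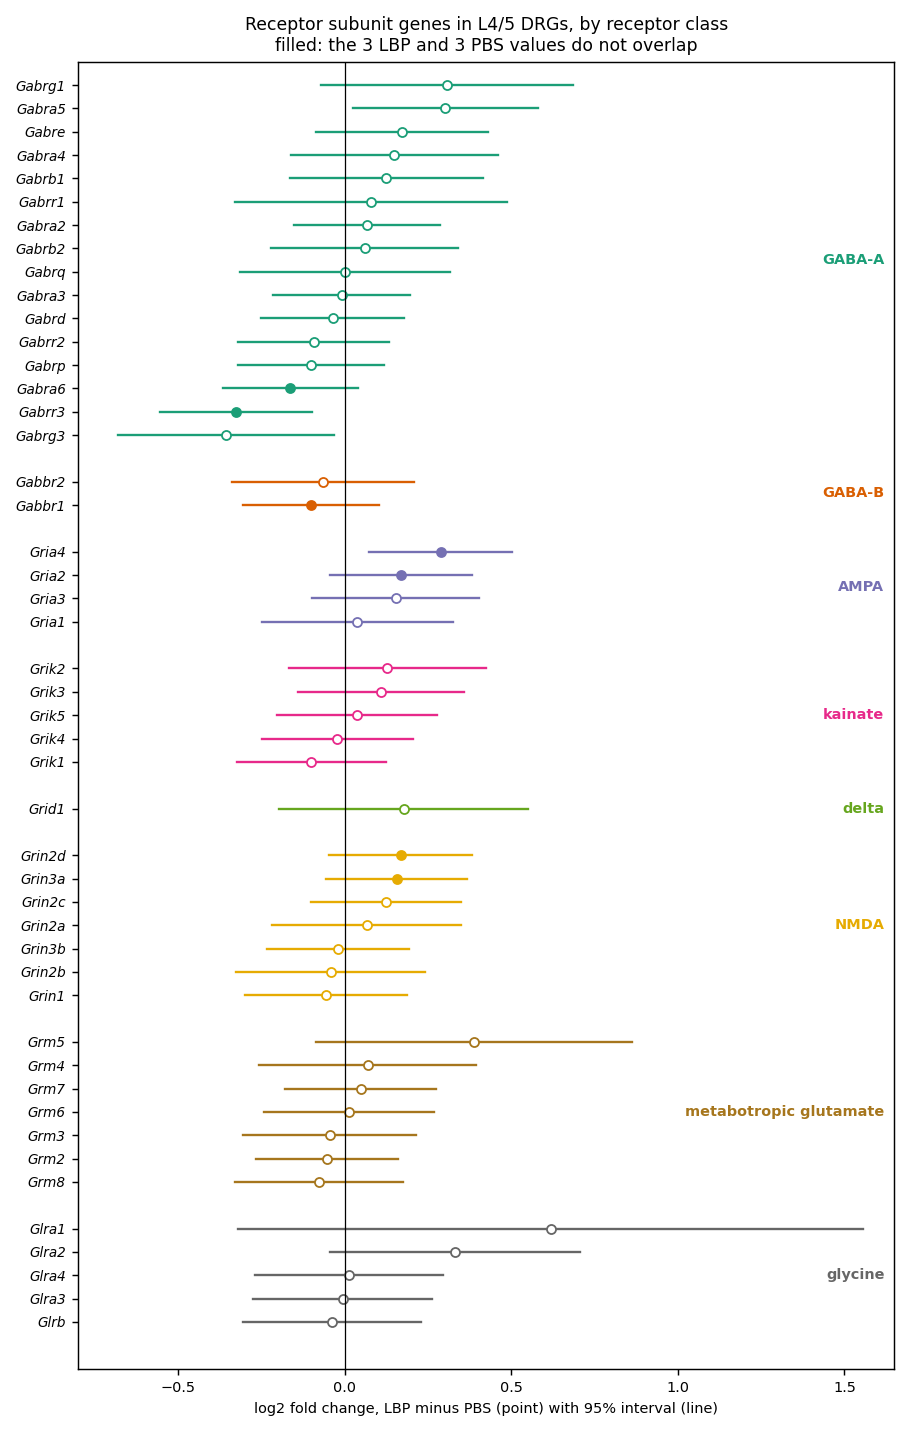
Log2 fold change (LBP minus PBS, x axis) of each of the 47 receptor subunit genes, ordered within its receptor class, with its 95% interval from limma as a line. Filled points are the 7 genes whose LBP and PBS values did not overlap. All 4 AMPA genes lie to the right of 0, and the interval of Glra1 is the widest.

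Promoter sequences are shown for Gria2 and Gria4, the AMPA subunit genes without overlap between the groups, and for Gabra5 and Gabrg3, which are neighbours on chromosome 7 and had log2 fold changes of opposite sign. Each runs from 250 bases before to 50 bases after the annotated start, taken from RefSeq (GRCm38.p6), 5′ to 3′ on the gene's own strand, which is the minus strand for all 4. The windows are chr3:80802786-80803085 for Gria2, chr9:4796185-4796484 for Gria4, chr7:57510010-57510309 for Gabra5 and chr7:57387166-57387465 for Gabrg3. Capitals mark the core of the RE1 element in Gria2 and a GC box (GGGCGG) in Gabrg3, both read on the opposite strand.
Gria2: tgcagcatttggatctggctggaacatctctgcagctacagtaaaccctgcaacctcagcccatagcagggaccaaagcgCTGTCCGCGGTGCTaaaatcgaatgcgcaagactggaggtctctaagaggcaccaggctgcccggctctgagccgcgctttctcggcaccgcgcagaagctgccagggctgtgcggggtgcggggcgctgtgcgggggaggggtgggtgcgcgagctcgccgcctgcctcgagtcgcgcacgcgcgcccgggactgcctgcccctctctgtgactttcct
Gria4: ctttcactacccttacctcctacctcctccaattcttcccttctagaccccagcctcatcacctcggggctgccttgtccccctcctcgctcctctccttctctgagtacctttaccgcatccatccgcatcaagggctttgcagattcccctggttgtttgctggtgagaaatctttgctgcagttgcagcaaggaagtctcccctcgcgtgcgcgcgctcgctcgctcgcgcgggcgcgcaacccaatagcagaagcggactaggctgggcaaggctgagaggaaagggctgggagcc
Gabra5: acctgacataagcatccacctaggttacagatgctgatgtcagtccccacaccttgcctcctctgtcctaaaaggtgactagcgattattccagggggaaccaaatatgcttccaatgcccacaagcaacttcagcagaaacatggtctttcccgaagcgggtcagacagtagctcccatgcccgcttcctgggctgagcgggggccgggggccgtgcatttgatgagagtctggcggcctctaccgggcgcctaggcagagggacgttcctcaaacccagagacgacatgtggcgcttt
Gabrg3: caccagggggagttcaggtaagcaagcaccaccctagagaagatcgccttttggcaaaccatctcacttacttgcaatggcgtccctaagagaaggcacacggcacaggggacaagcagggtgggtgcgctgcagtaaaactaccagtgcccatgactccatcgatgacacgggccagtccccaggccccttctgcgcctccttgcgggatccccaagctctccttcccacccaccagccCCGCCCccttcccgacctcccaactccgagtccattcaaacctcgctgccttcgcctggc
The RE1 element is the site read by REST, a repressor known for silencing neuronal genes in other cells. Its core stood at position -170 of Gria2, and 17 of 32817 promoter windows held it, or 0.0518%. Windows were at hand for 36 of the 47 genes, and Gria2 was the 1 that held the RE1 core. A GC box was found in 21 of the 36 and in 35.6% of all windows. The cAMP response element TGACGTCA was found in 0 of the 36 (1.79% of all windows), the E-box CACGTG in 1, Grin1 (7.15%), and the letters TATAAA in 4 (13.6%). A receptor gene was counted if any of its windows held the motif, while the percentages are of single windows, so these counts and percentages have unlike units. Both strands were searched, none of the 5 motifs contains another, and a match is a description of letters only.

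AMPA receptor subunit genes, which encode the channels of fast excitatory transmission, had the highest median log2 fold change of the classes with more than 2 genes, 0.16 over 4 genes. With an array left out this median ranged from 0.11 to 0.21. LBP replicate 2 was the highest array for 3 of the 4, or 75%, against 20.1% of all genes. Without that array the median was 0.13, with 3 of the 4 positive. Gria4 encodes GluA4, a subunit with fast kinetics. Its log2 intensity was 9.96, 9.94 and 10.12 in LBP-treated DRGs and 9.73, 9.73 and 9.70 in PBS-treated DRGs. Every LBP value lay above every PBS value, and the PBS arrays were close together. For Gria4 this gave a difference of 0.29 on the log2 scale (standard error 0.10, 95% interval 0.07 to 0.50, unadjusted p = 0.0134, adjusted p = 0.999, limma). The unadjusted p of Gria4 stayed under 0.05 in all 13 alternative settings tried, from 0.00505 to 0.0498. Of all 47 genes, Gria4 alone did so in every setting in which it was tested.

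Gria2 encodes GluA2, the subunit that makes AMPA receptors nearly impermeable to calcium once its transcript is edited. Gria2 was at 8.97, 8.99 and 8.97 after LBP and at 8.71, 8.90 and 8.81 after PBS. The groups of Gria2 did not overlap, with a spread after LBP (SD 0.01, n = 3) below that after PBS (SD 0.10, n = 3). Its log2 fold change was 0.17 (standard error 0.10, unadjusted p = 0.108). Gria3 had a log2 fold change of 0.15 (95% interval -0.10 to 0.40), with LBP replicate 1 inside the PBS range. For Gria1, LBP replicate 2 stood at 8.48 and the other 5 arrays between 8.01 and 8.19, so that its log2 fold change of 0.04 became -0.11 without that array.

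Grid1 encodes a delta subunit, which resembles AMPA subunits in sequence. Grid1 was at 7.26, 7.47 and 7.22 after LBP and at 7.54, 6.82 and 7.07 after PBS. Its PBS values enclosed all its LBP values, and its log2 fold change was 0.18 (unadjusted p = 0.318). Single PBS arrays moved this value, to 0.37 (unadjusted p = 0.0190) without PBS replicate 1 and to 0.02 without PBS replicate 2.

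NMDA receptors need the subunit Grin1 together with Grin2 or Grin3 subunits. Grin1 itself differed by -0.06 (95% interval -0.30 to 0.19), with overlapping groups. The groups were apart for Grin3a and Grin2d. Grin3a, whose subunit lowers the calcium permeability of the channel, was at 7.59, 7.57 and 7.55 after LBP and at 7.41, 7.51 and 7.33 after PBS. Grin2d was at 6.25, 6.09 and 6.07 after LBP against 5.95, 5.97 and 5.99 after PBS. These are log2 fold changes of 0.16 (unadjusted p = 0.131) for Grin3a and 0.17 (unadjusted p = 0.114) for Grin2d, with standard errors of 0.09 and 0.10. The gaps between the groups were small: the lowest LBP value of Grin3a was 7.55 and its highest PBS value 7.51. Grin2a, Grin2b, Grin2c and Grin3b overlapped between the groups, with log2 fold changes between -0.04 and 0.12.

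Kainate receptor genes showed overlapping groups in all 5 cases. Grik1 encodes GluK1, known as the main kainate receptor subunit of small sensory neurons. It was at 10.97, 10.91 and 10.89 after LBP and at 10.88, 11.08 and 11.10 after PBS, so that PBS replicate 1 lay below all LBP arrays. Its log2 fold change was -0.10 (95% interval -0.32 to 0.12). Grik2 (0.13), Grik3 (0.11), Grik5 (0.04) and Grik4 (-0.02) had log2 fold changes on either side of 0, and the class median of 0.04 became -0.05 without LBP replicate 2. Across the 17 ionotropic glutamate receptor genes, 12 log2 fold changes were positive, against 49.7% of all genes, and the median was 0.11. Groups did not overlap in 4 of the 17, or 23.5%, against 9.63% of all genes. All 4 had the LBP values on the higher side, against 4.35% of all genes. The median deviation of these 17 genes from the PBS mean was 0.00 on LBP replicate 1, 0.18 on LBP replicate 2 and 0.01 on LBP replicate 3. Without LBP replicate 2 their median log2 fold change was 0.05 with 10 positive. The same 4 genes stayed without overlap on the higher side, which dropping an array cannot change, so this tests nothing. Gria1 and Grin1 then had all LBP values lower, but fewer arrays separate more easily, and no share over all genes was taken.

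**Figure D2:**
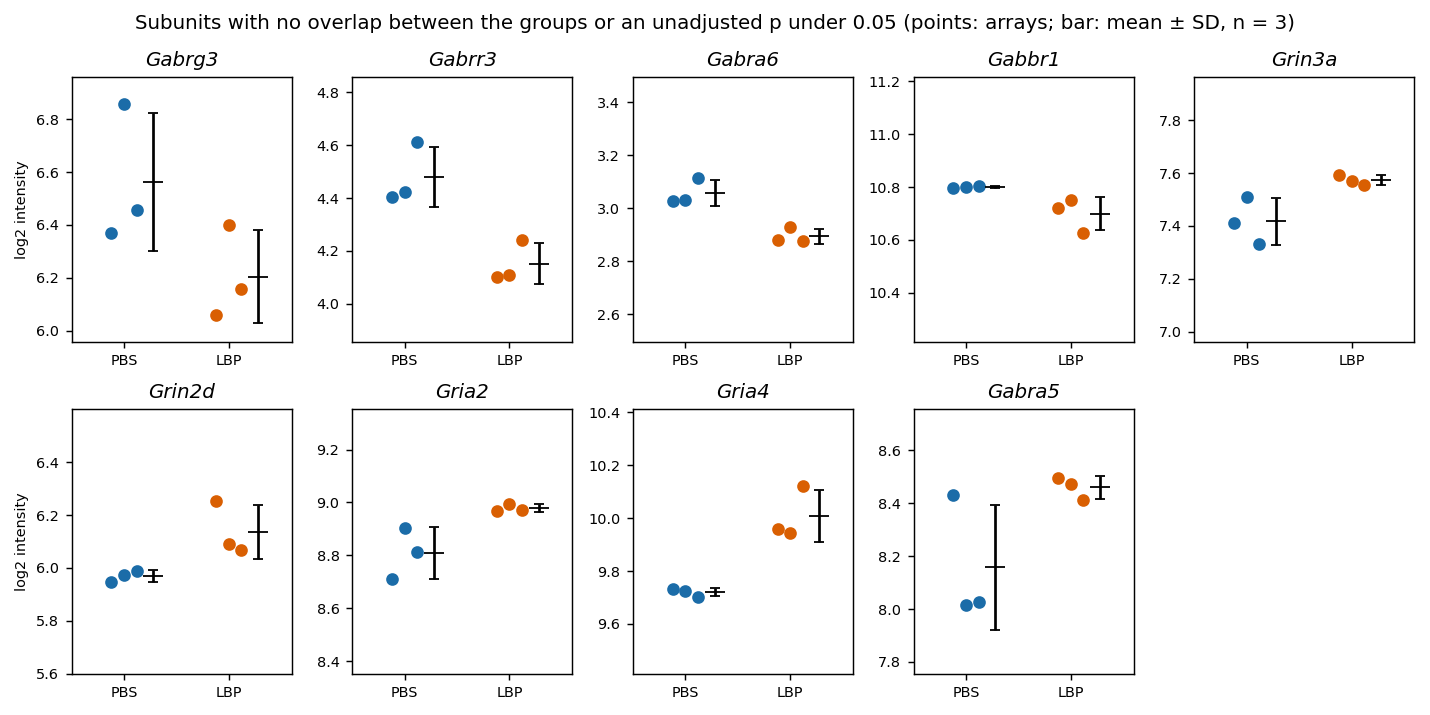
Log2 intensity (y axis, each panel spanning 1 log2 unit) of the 9 receptor genes whose groups did not overlap or whose unadjusted p was under 0.05. Points are the 3 PBS and 3 LBP arrays, and bars give mean ± SD (n = 3). In Gria4 the PBS arrays sit between 9.70 and 9.73 and all LBP arrays above them, while in Gabra5 and Gabrg3 a PBS array overlaps the LBP values.

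GABA-A receptors usually combine alpha and beta subunits with a gamma subunit, and the alpha subunit largely sets their pharmacology. Among the 16 GABA-A genes, 9 had positive and 7 negative log2 fold changes, with a median of 0.03 that ranged from -0.0042 to 0.064 when an array was left out. Gabra5 encodes an alpha subunit known for receptors outside synapses. It was at 8.49, 8.47 and 8.41 after LBP and at 8.43, 8.02 and 8.03 after PBS. PBS replicate 1 lay within the LBP range and the other PBS arrays below it. The log2 fold change of Gabra5 was 0.30 (standard error 0.13, unadjusted p = 0.0365), and its p ranged from 0.00279 without PBS replicate 1 to 0.134 over the fits that left out an array. Gabrg3, a gamma subunit gene, was at 6.06, 6.40 and 6.16 after LBP and at 6.37, 6.86 and 6.46 after PBS. LBP replicate 2 overlapped the PBS values. For Gabrg3 the difference was -0.36 on the log2 scale (standard error 0.15, unadjusted p = 0.0346), and 3 of the 6 fits that left out an array kept its p under 0.05.

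Gabrr3, which encodes a rho subunit of the receptors first described in the retina, was at 4.10, 4.11 and 4.24 after LBP and at 4.40, 4.42 and 4.61 after PBS. The groups of Gabrr3 did not overlap, its log2 fold change was -0.33 (standard error 0.10, unadjusted p = 0.00954), and its p was above 0.05 in 1 alternative (0.0537, without PBS replicate 3). Gabra6, known from cerebellar granule cells, was at 2.88, 2.93 and 2.88 after LBP against 3.03, 3.03 and 3.12 after PBS, without overlap and with a log2 fold change of -0.16 (unadjusted p = 0.103). Both genes were dim. Their means lay under 5.05, the lower quartile of all genes, where a value may hold mostly background.

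As a measure of how far a signal stood out, each gene was set against the 1119 olfactory receptor genes on the array, which ganglia are not known to use broadly and whose 95th percentile was 5.73. Probes differ between genes, so that this shows which values are likely to carry signal and gives no order of expression. Above this level were 30 of the 47 receptor genes: all AMPA, kainate and GABA-B genes, Grid1, 9 of 16 GABA-A, 4 of 7 NMDA, 4 of 7 metabotropic glutamate and 1 of 5 glycine receptor genes. The 17 others were Gabra4, Gabra6, Gabrp, Gabrq, Gabrr1, Gabrr2, Gabrr3, Grin2a, Grin2b, Grin2c, Grm2, Grm5, Grm6 and the glycine receptor alpha subunit genes Glra1, Glra2, Glra3 and Glra4. Of the 4 genes at an unadjusted p under 0.05, Gabrr3 belonged to these 17, and of the 7 genes without overlap between the groups, Gabrr3 and Gabra6 did.

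Many GABA-A subunit genes lie side by side in the genome, and the members of a cluster did not share a direction throughout. On chromosome 7, Gabrg3 (-0.36) and Gabra5 (0.30) follow each other with no other protein-coding gene between them in the GRCm38.p6 annotation, and their log2 fold changes had opposite signs. On chromosome 11, the neighbours Gabra6 (-0.16) and Gabrb2 (0.06) also differed in sign, and the 95% intervals of both spanned 0.

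On chromosome 5, Gabrg1, Gabra2, Gabra4 and Gabrb1 all had positive log2 fold changes, with only Cox7b2 between Gabra2 and Gabra4. Gabrg1, a gamma subunit gene, was at 9.51, 8.91 and 9.53 after LBP and at 9.16, 8.81 and 9.07 after PBS. LBP replicates 1 and 3 lay above all PBS arrays and LBP replicate 2 between them. The log2 fold change of Gabrg1 was 0.31 (standard error 0.17, unadjusted p = 0.102) and became 0.51 (unadjusted p = 0.00361) without LBP replicate 2. Gabra2, an alpha subunit gene, differed by 0.07 (95% interval -0.15 to 0.28), Gabra4 by 0.15 and Gabrb1 by 0.12. Gabra4 and Gabrb1 were highest on LBP replicate 2, and without it they differed by 0.03 and -0.02. On the X chromosome, Gabre, the epsilon subunit gene, was at 5.75, 6.13 and 6.05 after LBP and at 5.79, 5.84 and 5.78 after PBS. LBP replicate 1 of Gabre lay below all PBS arrays and the other LBP arrays above them, with a log2 fold change of 0.17 (unadjusted p = 0.172), while Gabra3 (-0.01) and Gabrq (0.00) had values near 0. Gabrr2, a rho subunit gene, was at 5.02, 4.99 and 4.99 after LBP and at 5.18, 5.16 and 4.94 after PBS. PBS replicate 3 lay below all LBP arrays, and the log2 fold change of Gabrr2 was -0.09, against 0.08 for its neighbour Gabrr1 on chromosome 4. Of the 3 remaining, Gabrd had -0.04 and Gabrr3 is described above. Gabrp, the pi subunit gene, was at 4.82, 4.67 and 4.62 after LBP and at 4.80, 4.87 and 4.77 after PBS, with overlapping groups and a log2 fold change of -0.10.

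**Figure D3:**
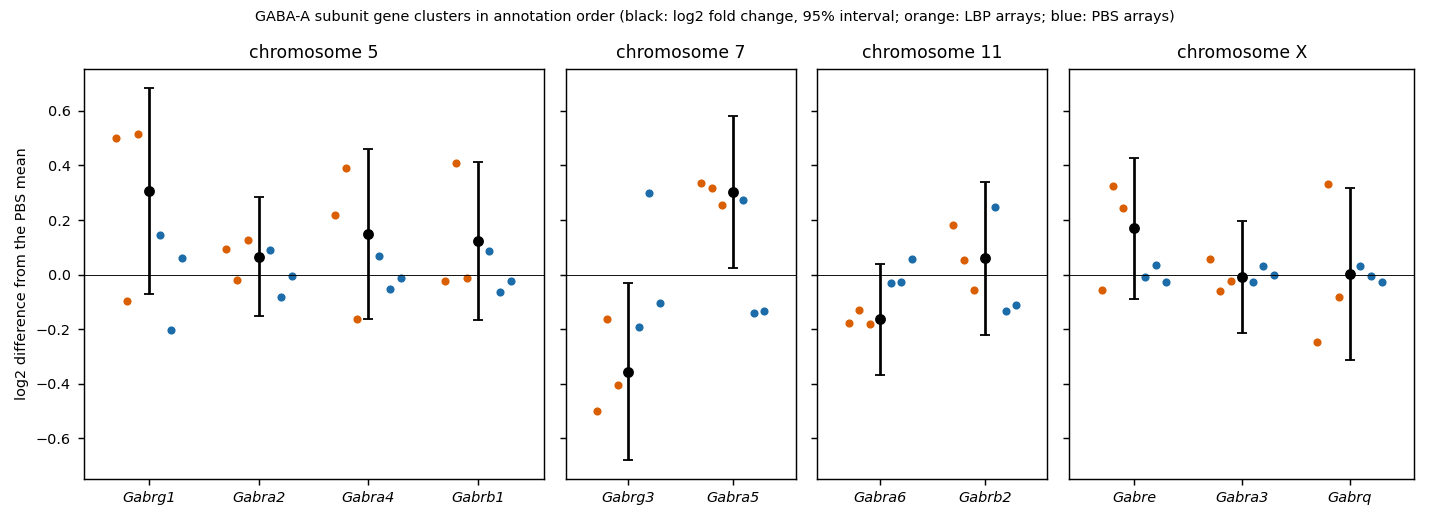
GABA-A subunit genes of 4 genomic regions in annotation order (x axis) against the log2 difference from the PBS mean of each gene (y axis). Black points and bars are log2 fold changes with 95% intervals, orange points LBP arrays and blue points PBS arrays. The neighbours Gabrg3 (-0.36) and Gabra5 (0.30) lie on opposite sides of 0, and the 4 genes of chromosome 5 all have positive values.

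The GABA-B receptor works as a pair of Gabbr1, which binds GABA, and Gabbr2, which couples to the G protein. Gabbr1 was at 10.72, 10.75 and 10.63 after LBP and at 10.80, 10.80 and 10.80 after PBS. All LBP values were lower, and the PBS arrays differed by less than 0.01 (SD 0.003, n = 3). The log2 fold change of Gabbr1 was -0.10 (standard error 0.09, unadjusted p = 0.298), with the standard error as moderated by limma over all genes. Gabbr2 differed by -0.07 (95% interval -0.34 to 0.21) with overlapping groups.

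Metabotropic glutamate receptor genes overlapped between the groups in all 7 cases, with a class median of 0.01. Grm5, coupled to calcium release, was at 4.98, 5.71 and 4.81 after LBP and at 4.54, 4.80 and 4.99 after PBS. LBP replicate 2 alone lay above the range of the other arrays. For Grm5 the difference was 0.39 on the log2 scale (standard error 0.21, unadjusted p = 0.0976) and was 0.12 without LBP replicate 2. The other 6 genes ranged from -0.08 for Grm8 to 0.07 for Grm4. Grm8, a presynaptic receptor gene, was at 6.67, 6.75 and 6.74 after LBP and at 7.01, 6.66 and 6.73 after PBS, with PBS replicate 1 apart from the other arrays. Grm7, of the same receptor group, had 0.05 (95% interval -0.18 to 0.27), and Grm2, Grm3 and Grm6 lay between -0.05 and 0.01.

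Glycine receptors join alpha subunits with the beta subunit Glrb, which ties them to the scaffold protein gephyrin. Glra1, the alpha subunit gene of adult spinal cord and brainstem, was at 5.18, 7.07 and 5.11 after LBP and at 5.00, 5.21 and 5.30 after PBS. LBP replicate 2 stood 1.77 above the next array, and the other 5 arrays overlapped. The log2 fold change of Glra1 was 0.62 (standard error 0.42, unadjusted p = 0.172), the highest of the 47, and -0.02 without LBP replicate 2. Glra2 was at 5.32, 5.80 and 5.10 after LBP and at 4.90, 5.14 and 5.20 after PBS, again highest on LBP replicate 2. Its log2 fold change was 0.33 (standard error 0.17, unadjusted p = 0.0775), or 0.14 without that array. Glrb, at a PBS mean of 11.1, differed by -0.04 (95% interval -0.31 to 0.23), Glra3 by -0.01 and Glra4 by 0.01.

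LBP replicate 2 was the highest array for 16 of the 47 receptor genes, or 34%, against 20.1% of all genes, and the lowest for 3. It stood over 0.3 from the PBS mean in 11 receptor genes, and LBP replicates 1 and 3 in 4 each. The PBS arrays, being part of that mean, are not compared, and this was not counted over all genes. On LBP replicate 2, 9 of the 14 central nervous system markers also had their highest value, with Mobp, a myelin gene of oligodendrocytes, at 8.997 against 5.97 to 6.38 on the others, and Aqp4, a water channel of astrocytes, at 8.03 against 6.88 to 7.20. The mean level of the 14 markers was 5.45 to 6.22 over the LBP arrays and 5.42 to 5.54 over the PBS arrays. On average 7 of the 14 lay above 5.73, the 95th percentile of the olfactory receptor genes, and 4 were dim (Opalin, Ermn, Lbx1 and Olig2). Gfap, in the same list, is also made by satellite and Schwann cells. Of the 7 Schwann cell and myelin genes measured, 7 were highest on LBP replicate 2, with a mean level of 9.86 to 10.5 over LBP and 10.0 to 10.2 over PBS arrays. Over the groups, 12 of the 14 central nervous system markers had positive log2 fold changes, against 49.7% of all genes. Gjb6, the 1 of the 14 with an unadjusted p under 0.05 (7.14%, against 4.72% of all genes), had -0.61. Satellite glia markers had a median of 0.04. Of these 8, Cdh19 (0.49) and Kcnj10 (0.29) had an unadjusted p under 0.05, or 25%, against 4.72% of all genes. Groups did not overlap in 50% of the 8, against 9.63% of all genes. Cdh19, Kcnj10 and Glul (0.18) were on the higher side and Gja1 (-0.19) on the lower, while Fabp7 (-0.30) overlapped. Fibroblast markers were negative in 7 of 8 cases with a median of -0.21. Among them, Dpt (-0.40) and Col3a1 (-0.43) had an unadjusted p under 0.05, or 25% of the 8, against 4.72% of all genes. Skeletal muscle markers were negative in 8 of 8 cases with a median of -0.45, where 49.7% of all genes were positive. The part of these markers in the receptor values, among them those of Glra1, Glra2 and Grm5, was not tested. Without LBP replicate 2 the count of receptor genes at an unadjusted p under 0.05 was again 4, with Gabrg1 in place of Gabra5, and the log2 fold change of Gria4 was 0.32.

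**Figure D4:**
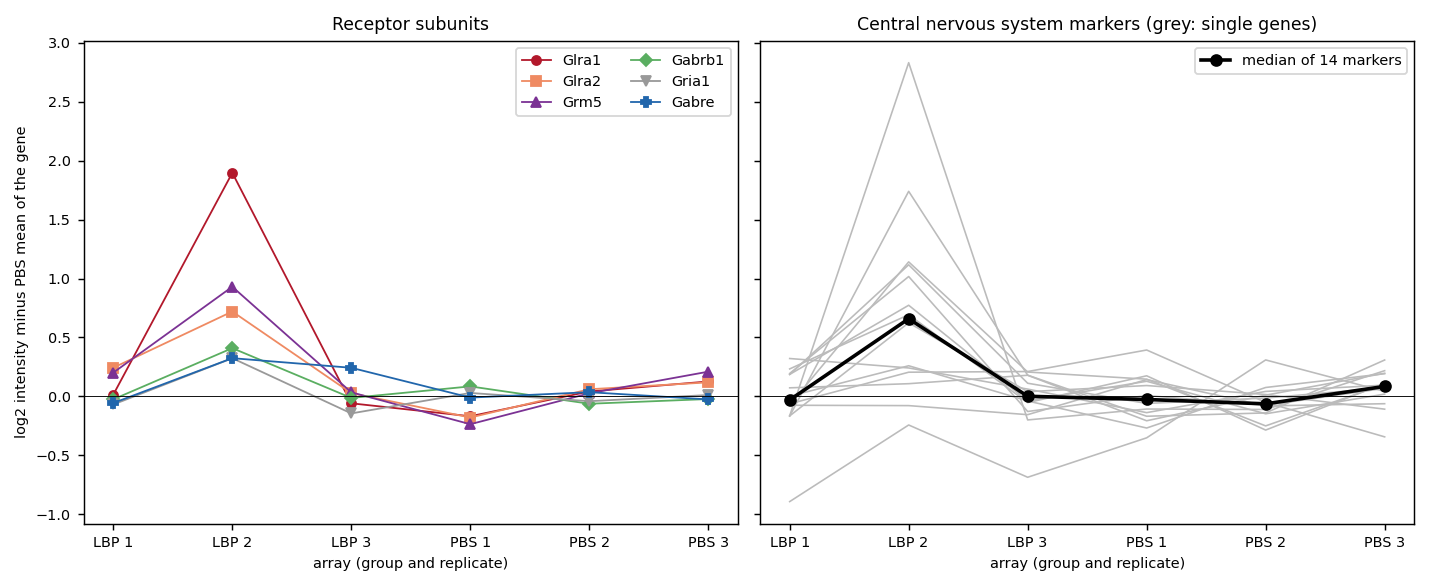
Log2 intensity minus the PBS mean of each gene (y axis) on the 6 arrays (x axis). Left, 6 receptor genes, Glra1, Glra2, Grm5, Gabrb1, Gria1 and Gabre, each highest on LBP replicate 2. Right, the 14 central nervous system markers (grey) and their median (black), which is 0.66 on that array and between -0.06 and 0.08 on the others.

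The genes that supply and clear the transmitters gave 0 calls at an adjusted p under 0.05 (limma). Of 13 glutamate genes, 6 had positive and 7 negative log2 fold changes, with a median of -0.04, and 1 had an unadjusted p under 0.05, or 7.69%, against 4.72% of all genes. This was Slc17a8, the vesicular glutamate transporter of a class of touch neurons, at 7.15, 6.95 and 6.95 after LBP and 7.25, 7.51 and 7.58 after PBS. The groups of Slc17a8 did not overlap, and its log2 fold change was -0.43 (standard error 0.12, unadjusted p = 0.00434). Slc17a6, the vesicular transporter of most sensory neurons, differed by -0.14 (unadjusted p = 0.210).

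Of 11 GABA and glycine genes, 4 were positive and 7 negative, with 0 at an unadjusted p under 0.05. LBP replicate 2 was the highest array for 7 of the 11. These included Gad2, which makes GABA, at 6.46 against 5.04 to 5.48 on the other arrays, and Slc6a5, the glycine transporter of glycinergic neurons, at 6.50 against 5.14 to 5.28. Of 7 chloride transporter genes, 0 had an unadjusted p under 0.05. Slc12a2 was at 11.1 in both groups (log2 fold change 0.05, 95% interval -0.16 to 0.26), and Slc12a5, which extrudes chloride from central neurons, was highest on LBP replicate 2 at 6.89.

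Proteins that travel with the receptors or anchor them were measured too. Among 22 auxiliary and scaffold genes of ionotropic glutamate receptors, 11 log2 fold changes were positive and 11 negative, with a median of -0.01. Neto2, an auxiliary subunit of kainate receptors, was the 1 gene with an unadjusted p under 0.05, or 4.55%, near the 4.72% of all genes. Neto2 was at 9.10, 8.78 and 9.02 after LBP and at 9.11, 9.34 and 9.28 after PBS, without overlap, and its log2 fold change was -0.27 (standard error 0.12, unadjusted p = 0.0412). Among 13 partners of metabotropic receptors and 15 anchoring genes of GABA-A and glycine receptors, 0 had an unadjusted p under 0.05, and Gphn, which encodes gephyrin, differed by -0.02 (95% interval -0.22 to 0.19).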

How the data were processed

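Per the paper's methods and the labels, the authors read GeneChip Mouse Gene 2.0 ST arrays into R, summarized probes with expresso and MAS5, and quantile-normalized. They also name a rule for omitting outlier arrays by their correlation with the others, without saying that an array was removed. They deposited log2 intensities, 1 value per gene symbol and array; the sources used here give neither software versions nor a genome build. The table also holds the authors' comparisons (fold changes, p-values, 3 columns for single arrays), which were not used. Of 24647 rows, 24 with symbols turned into dates were left out.

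All 24623 genes were fitted with limma 3.58.1 in R 4.3.3 (lmFit, eBayes, treatment as the single factor, two-sided, Benjamini-Hochberg). The fit was also run on simulated data with independent noise, which checks the code and says nothing about the receptor values. The number of arrays limits the precision. Depth per sample does not apply to arrays. Symbols of all 47 receptor genes occur in the RefSeq annotation (GRCm38.p6). Some genes that match the choice of members are not reported here. Members, gene lists and alternatives were chosen with earlier results of these data known. Values per array are given for genes with an unadjusted p under 0.05, with groups that did not overlap, or among the 8 largest or 8 smallest log2 fold changes, with genomic clusters named together; other members were named to account for the set, Mobp, Aqp4, Gad2, Slc6a5, Slc12a2, Slc12a5, Slc17a6, Gphn and the satellite glia, fibroblast and other cell type markers after their values were seen.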

Additional observations from a re-analysis of the deposited data

How the results depend on the processing

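Over 13 alternatives, 0 of the 47 receptor genes passed an adjusted p under 0.05, and the lowest adjusted p of the 28 genes followed in each was 0.645. Genes called over the whole table numbered 2 in the reported fit and 4 with the replicate number as a block, with dim genes left out, with an intensity trend, with robust eBayes and with array weights; leaving out an array gave 1 to 2. Receptor genes at an unadjusted p under 0.05 numbered 4, and from 2 to 5 with an array left out: 2 without PBS replicate 2 (Gabrr3, Gria4) and 2 without PBS replicate 3 (Gabrg3, Gria4), 5 without LBP replicate 3 (Gabra4, Gabrr3, Glra2, Gria4, Grm5) and 5 without PBS replicate 1 (Gabra5, Gabrg3, Gabrr3, Gria4, Grid1). Groups without overlap numbered 7 and, with an array left out, 9 to 14, since fewer arrays separate more easily. With dim genes left out the glycine median was 0.33, from the 3 genes that remain, and the metabotropic glutamate median -0.046 (-0.058 to 0.032 with an array left out, against 0.01). Leaving out an array also turned the sign of the kainate (-0.053 to 0.057), GABA-A (-0.0042 to 0.064) and glycine (-0.022 to 0.11) medians. Same-numbered LBP and PBS arrays deviated together with correlations of 0.11, -0.03 and 0.08, and LBP replicates 2 and 3 correlated better with another number, so that numbers were not taken as pairs; with the replicate block, 5 receptor genes had an unadjusted p under 0.05, Gabrg1 (0.31) among them. Without an array left out, 5 of the 47 changed sign in some setting, with array weights Gabra3 (0.0061) and Gabrq (-0.060) among them. With an array left out it changed for 23 of the 47 receptor genes, among them Gria1, Grik5, Glra4 and Glrb, and of the 28 genes followed for Gabra3 (-0.042 to 0.016), Gabrb1 (-0.019 to 0.20), Gabrb2 (-0.0075 to 0.18), Gabrq (-0.16 to 0.13), Gabrr1 (-0.16 to 0.22), Glra1 (-0.022 to 0.96) and Grm8 (-0.15 to 0.028).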
